A study of Mus musculus with 20 samples.

Results

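The tumors described here are 3 breast tumors, numbered 4, 19 and 20, of 20 in all. They were chosen because the study left their Chr1 values blank in its table of allele fractions, after linked variants along the chromosome leaned toward the same parent, which the authors read as loss of chromosome material. They are called Chr1-blank tumors below and are compared with the other 17 tumors. All 20 arose spontaneously in [BALB/c-neuT x FVB/J] F1 females, 1 frozen tumor piece per mouse, from neuT-carrying BALB/c fathers and FVB/J mothers. Every mouse, including those behind the 17 comparison tumors, was hemizygous for neuT, an activated rat Her2/neu oncogene that the BALB/c-neuT line expresses from the mammary tumor virus promoter, and the labels name no treatment. Sample titles also carry a class, Lo or Hi, whose meaning the labels do not give. Tumor 4 is Lo, tumors 19 and 20 are Hi, and the 17 include both. Mice were killed when a tumor reached the size limit, and the age of each mouse was not used here. The allele readings that chose the 3 tumors came from the same RNA libraries as the counts, but from the ratio of parental alleles and not from the total level of a gene.

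A diploid mouse cell carries a maternal and a paternal copy of each autosome, and many genes make RNA roughly in proportion to the copies present. Loss of a chromosome or of an arm segment therefore tends to lower many neighboring genes by a small, similar amount, and less so where a tumor piece also holds stromal cells with both copies. Mouse Chr1 is acrocentric, so positions here run from the centromere outward, and it carries genes for DNA replication, splicing, mitochondria and leukocyte receptors among many others.

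Totals of gene counts ran from 38765682 to 65465755 over the 20 tumors, and the Chr1-blank tumors, at 41064562 to 50254737, lay inside the range of the others. Epithelial markers were present throughout, for example Epcam at 873.0, 1068 and 1184 CPM (read counts divided by TMM-adjusted library sizes) in tumors 4, 19 and 20 and at 891 to 1340 CPM in the 17. Erbb2, the mouse counterpart of the driver, was at 207.9, 212.4 and 182.3 CPM against 155 to 241 CPM, and its log2 fold change of 0.05 (SE 0.0994, adjusted p = 0.941, edgeR) was within the spread. Reads do not separate fewer cells of a type from less RNA per cell.

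Chr1 genes were lower in all 3 Chr1-blank tumors, by a different amount in each. The expression level of a chromosome was computed from genes averaging 5 CPM or more as the median of each gene's log2 CPM relative to its own median over the 20 tumors, minus the same median over the other autosomes, so that 0 is no deviation. For the 723 Chr1 genes it was -0.31 in tumor 4, -0.14 in tumor 19 and -0.24 in tumor 20, while the 17 other tumors lay between -0.04 and 0.07. The groups did not overlap. The mean was -0.23 ± 0.084 (SD, n = 3) against 0.02 ± 0.031 (SD, n = 17), a difference of -0.25 or 84.0% of the level in the others (exact permutation test, two-sided, p = 0.00175, the smallest that 3 against 17 tumors allow, adjusted p = 0.0351 over 20 chromosomes). Without tumor 4, 19 or 20 the difference was -0.21, -0.30 and -0.25, each with an unadjusted p of 0.0117, the smallest that 2 against 17 tumors allow, and an adjusted p of 0.234, 0.117 and 0.234, which miss the threshold.

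The 3 tumors differed in where along Chr1 their genes were low. Chr1 was divided by gene start into 20 windows of 36 or 37 genes. In tumor 4, windows 1 to 8 had levels of -0.11 to 0.05, of which 1 was below all 17 other tumors, whereas all of windows 9 to 20 were below them, at -0.58 to -0.32. In tumor 20, window 1 was at -0.03, inside the range of the others, and windows 2 to 20 were below all 17, at -0.33 to -0.09. In tumor 19, 18 of the 20 windows were below all 17, at up to -0.26, and no stretch stood out. As a group of 3, all 20 windows were lower, by -0.40 (window 14) to -0.10 (window 7) on the log2 scale, with adjusted p of 0.00319 to 0.0386 over the 20 windows (exact permutation tests). All 3 tumors were below all 17 in 11 windows, 1 of them (window 2) proximal.

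**Figure D1:**
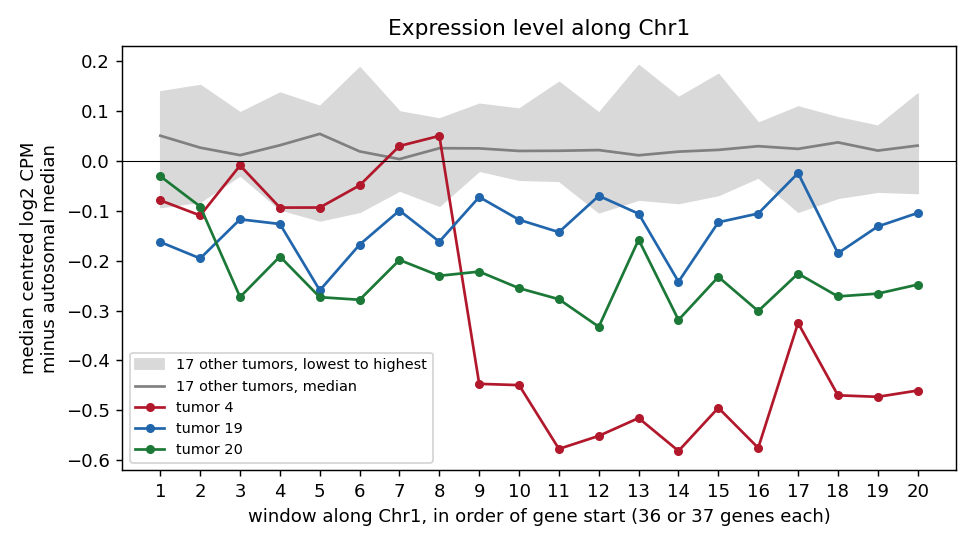
Level of Chr1 genes along the chromosome. The x axis gives 20 windows of 36 or 37 genes in order of gene start, the y axis the median centred log2 CPM of the window minus the autosomal median, the colored lines tumors 4, 19 and 20, and the band and grey line the range and median of the 17 other tumors. Tumor 4 drops from 0.05 in window 8 to -0.45 in window 9, tumor 20 lies below the band from window 2 on, and tumor 19 lies below the band in 18 windows and inside it in windows 12 and 17.

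The step in tumor 4 fell between adjacent expressed genes. For each tumor the single split of the 723 ordered genes that most reduced the sum of squared deviations was found, with each gene's deviation from the median of the 17 limited to 1 on the log2 scale. In tumor 4 this split lay between Sp100 (start 85649988, mm10) and Cab39 (start 85793441), with median levels of -0.08 over the 289 genes before it and -0.52 over the 434 genes after it, and it reduced the sum by 30.7. The best split of any of the 17 other tumors reduced it by 1.95 (tumor 17). Restricted to genes with a mean of at least 20 CPM, the split in tumor 4 lay between Trip12 (start 84721189) and Cab39. In tumor 20 the best split lay far proximal, between Bend6 (start 33852052) and Dst (start 33908225), with -0.07 before and -0.30 after it, but its reduction of 2.04 was hardly larger than that in tumor 17, and the reduction in tumor 19 was 0.53. Because the position was located in these data, levels on either side are given as a description of tumor 4, and the genes before and after Cab39 are called proximal and distal below.

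Single genes showed the step in tumor 4. Of the 10 expressed genes just before it, 0 were below all 17 other tumors in tumor 4, and of the 10 just after it 8 were. Trip12, a ubiquitin ligase, had a log2 level of -0.20 relative to the median of the 17, inside their range of -0.22 to 0.09, and Mff, which recruits the mitochondrial fission machinery, was at -0.09. On the other side Cab39, a scaffold of the LKB1 kinase complex, was at -0.68, Psmd1, a proteasome subunit, at -0.57, Ncl (nucleolin) at -0.82 and Ptma (prothymosin alpha) at -0.58, each below the range of the 17. Cops7b, a COP9 signalosome subunit, was at -0.11, inside that range. Tumor 19 had 3 below all 17 on either side, and tumor 20 had 4 before and 5 after, so that neither showed the step of tumor 4. Over all genes tested, 9.92%, 7.04% and 8.45% were below all 17 in tumors 4, 19 and 20.

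Proximal Chr1 thus separated tumor 4 from the others of its group. Over the 289 proximal genes the level was -0.04 in tumor 4, within the -0.05 to 0.07 of the 17, but -0.16 in tumor 19 and -0.22 in tumor 20, or 95.0%, 87.4% and 84.1% of the median of the 17. Over the 434 distal genes it was -0.49, -0.12 and -0.25, or 69.8%, 90.5% and 82.6%. Distal minus proximal was -0.45 in tumor 4, 0.04 in tumor 19 and -0.03 in tumor 20, and -0.04 to 0.09 in the 17. The mean of the 3 tumors minus that of the 17 was -0.16 proximally and -0.32 distally. No sample reached a level of 50%, which 1 copy in place of 2 would give in a pure cell population with output proportional to copies. How much of each tumor piece was other cells was not measured.

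Gene by gene, the shift was small and broad. Counts were compared by edgeR's quasi-likelihood test over 20335 genes, 1518 of them on Chr1. Of the Chr1 genes, 1224 (80.6%) had a negative log2 fold change and the median was -0.24, against 49.0% negative and a median of 0.01 over the 18817 genes elsewhere. The median was -0.14 over 572 proximal genes and -0.30 over 946 distal genes. At an unadjusted p under 0.05, 410 Chr1 genes (27.0%) were lower and 9 higher, where 4.9% of all genes tested were lower and 3.89% higher. Chr1 genes split into 3 classes of 506 by level had medians of -0.26, -0.20 and -0.25 from the least to the most abundant class, and the share that was negative rose over these classes from 70.6% to 78.7% and 92.7%, while the median SE fell from 0.478 to 0.202 and 0.109.

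**Figure D2:**
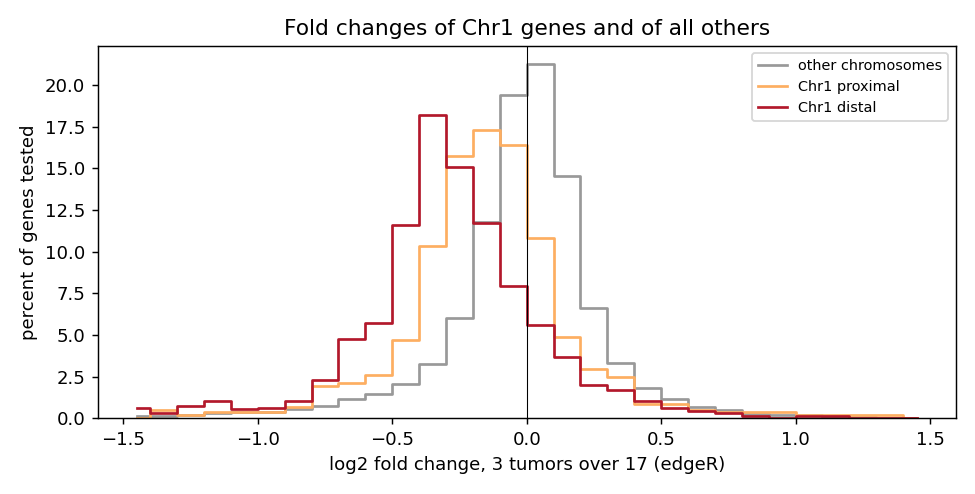
Log2 fold changes of the 3 Chr1-blank tumors over the 17 others. The x axis gives the fold change in bins, the y axis the percent of genes tested in each bin, for 572 proximal and 946 distal Chr1 genes and 18817 genes elsewhere. The distal curve lies around -0.30, the proximal around -0.14 and the rest around 0.01, and genes beyond 1.5 in either direction are not drawn.

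Few single genes passed the adjusted threshold with 3 tumors. At an adjusted p under 0.05, 3 genes were lower (0.0148% of those tested) and 9 were higher (0.0443%). All 3 lower genes lie on distal Chr1. Enah, an actin regulator of the Ena/VASP family at the leading edge of cells (181896384 to 182019990), was at 54.7, 65.7 and 69.8 CPM in tumors 4, 19 and 20 and at 82.1 to 101.9 CPM, with a median of 91.6, in the 17. The groups did not overlap, and it fell by 0.54 on the log2 scale (SE 0.0768, adjusted p = 0.00257). Cdc73, whose product parafibromin belongs to the PAF1 transcription elongation complex (143598800 to 143702893), was at 33.6, 41.5 and 41.8 CPM against 45.1 to 62.6 CPM with a median of 55.0. It was likewise below every other tumor and fell by 0.49 (SE 0.0881, adjusted p = 0.0247). Gigyf2, which takes part in translational repression at the mRNA cap (87326998 to 87450796), was at 51.6, 79.4 and 59.2 CPM against 77.5 to 97.9 CPM with a median of 90.1. Tumor 19 overlapped the others for this gene, which fell by 0.49 (SE 0.0907, adjusted p = 0.0311). Cdc73 and Gigyf2 lost their calls without tumor 20 (adjusted p = 0.0757 and 0.134). Without tumor 4 no Chr1 gene passed the threshold, without tumor 20 there were 2 lower Chr1 genes, and without tumor 19 there were 50.

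DESeq2 applied to the same counts called many more Chr1 genes. It called 147 genes lower (0.723% of those tested) and 54 higher (0.266%), and 106 of the lower ones lie on Chr1, 98 distal and 8 proximal. The 3 genes called by edgeR were among the 106, and 105 of them had an unadjusted edgeR p under 0.05. Their log2 fold changes had a median of -0.42, or 74.9% of the level in the others. Some of the more abundant are named here, chosen after the values were seen. Ncl, an abundant nucleolar protein, was at 316, 388 and 442 CPM against 431 to 675 CPM, where tumor 20 overlapped the others (edgeR log2 fold change -0.57, adjusted p = 0.0989, DESeq2 adjusted p = 0.00516). Hdlbp, next in abundance, was at 348, 466 and 397 CPM against 442 to 594 CPM, where tumor 19 overlapped the others (edgeR log2 fold change -0.37, adjusted p = 0.162, DESeq2 adjusted p = 0.0313). Atp1b1, the beta subunit of the sodium pump, was at 155.5, 241.5 and 255.8 CPM, below the 277 to 406 CPM of all 17 (edgeR log2 fold change -0.63, adjusted p = 0.0724). Sf3b1, a core splicing factor on proximal Chr1, was at 254.5, 237.2 and 230.3 CPM, below the 263 to 329 CPM of all 17 (-0.28, adjusted p = 0.105).

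Genes without overlap between the groups were most frequent on distal Chr1. All 3 tumors were below all 17 for 51 Chr1 genes (3.36% of those tested there), 42 of them distal, where 0.344% of all genes tested were below, and all 3 were above all 17 for 2 Chr1 genes, where 0.143% of all genes were above. In tumor 4 alone, 38.1% of distal and 10.5% of proximal Chr1 genes were below all 17, against 9.92% of all genes tested. In tumor 19 the shares were 13.6% and 20.6% against 7.04%, and in tumor 20 they were 27.4% and 25.0% against 8.45%. Proximal genes below all 17 were thus about as frequent as genes in general in tumor 4, and more frequent in tumors 19 and 20.

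The Chr1 genes were also grouped by role. The lists below are of Chr1 genes, and medians are of log2 fold changes in edgeR, to be read beside the median of -0.24 over all Chr1 genes. Shares at an unadjusted edgeR p under 0.05 are to be read beside the 27.0% of all Chr1 genes that were lower. Numbers called by DESeq2 are to be read beside the 106 of 1518 Chr1 genes that it called lower. Differences between lists were not tested, and the lists differ in how many of their genes are distal, for example 17 of 24 for replication and 10 of 24 for mitochondria. The share at an unadjusted p also depends on abundance, since the median SE was 0.478 in the least abundant class of Chr1 genes and 0.109 in the most abundant. The lists were not matched to all Chr1 genes in abundance. Of 24 genes of DNA replication, repair and mitosis, 23 were negative, with a median of -0.34. Of these edgeR called 1 lower (Cdc73) and DESeq2 called 3 (Cdc73, Parp1 and Exo1), and 15 (62.5%) had an unadjusted edgeR p under 0.05. Parp1, a sensor of DNA strand breaks, had -0.33 (SE 0.0869, edgeR adjusted p = 0.149, DESeq2 adjusted p = 0.0437), and Mcm6, a subunit of the replicative helicase, had -0.45 (SE 0.149, adjusted p = 0.298). Hjurp, the chaperone of centromeric histone, had -0.12. Of 19 chromatin and splicing genes, 16 were negative with a median of -0.27, and 12 (63.2%) had an unadjusted p under 0.05. In this list edgeR called 1 lower (Cdc73, which is in both lists) and DESeq2 called 5 (Cdc73, Ncl, Sf3b1, Hdac4 and Hnrnpu). Hnrnpu, a nuclear RNA-binding protein, was at 318, 342 and 341 CPM, below the 371 to 468 CPM of all 17 (-0.31, edgeR adjusted p = 0.149, DESeq2 adjusted p = 0.0216).

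Lists of metabolism and protein synthesis had medians close to or above that of all Chr1 genes, with 0 called by edgeR and 2 called lower by DESeq2 in each of the 3 lists. Of 24 mitochondrial and metabolic genes 21 were negative (median -0.22), led by Hspd1, the mitochondrial chaperonin Hsp60, at 145.4, 135.0 and 128.0 CPM, below the 150 to 218 CPM of all 17 (-0.39, edgeR adjusted p = 0.156, DESeq2 adjusted p = 0.0420). All 23 genes of translation and protein handling were negative (median -0.17), and 8 of them (34.8%) had an unadjusted p under 0.05, close to the share over Chr1. Of 17 genes of apoptosis and the p53 pathway 15 were negative (median -0.20). Mdm4, an inhibitor of p53, had -0.38 (SE 0.212, adjusted p = 0.651).

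Other lists hold genes that stromal and immune cells also express. Of 25 growth factor signalling genes 17 were negative (median -0.14), of 19 extracellular matrix and adhesion genes 12 (median -0.09), of 31 leukocyte receptor genes 21 (median -0.11) and of 16 interferon and DNA sensing genes 12 (median -0.18). EdgeR called 0 genes in each, with 7, 2, 2 and 1 lower at an unadjusted p under 0.05, and DESeq2 called 2 growth factor signalling genes lower (Esrrg and Pgap1) and 0 in the other 3. Some of these medians turned on 1 tumor. Without tumor 19 they were -0.41 for growth factor signalling, -0.25 for extracellular matrix and adhesion and -0.28 for leukocyte receptors. Without tumor 4 the matrix list was at -0.0022 and the leukocyte receptors at 0.01, and without tumor 20 these were at -0.24 and 0.0033. Within distal Chr1 of tumor 4, the median over all genes tested was -0.42. It was -0.52 over genes with a mean of at least 5 CPM and -0.56 over those with at least 20 CPM. The chromatin list was at -0.66, growth factor signalling at -0.64, replication at -0.59, and extracellular matrix and adhesion and mitochondria both at -0.54. Translation was at -0.49, apoptosis at -0.40, leukocyte receptors at -0.20 and interferon at 0.13. The lists were not matched to these medians in abundance. Igfbp5, an insulin-like growth factor binding protein on proximal Chr1, varied widely, at 2141, 9171 and 3089 CPM against 2432 to 6377 CPM, so that tumor 4 was below and tumor 19 above all 17 (0.03, SE 0.309, adjusted p = 0.987). Col9a1, a collagen chain, was at 1330, 1295 and 1468 CPM against 1368 to 2230 CPM (-0.39, adjusted p = 0.373), and Ptprc, the pan-leukocyte antigen CD45, was at 17.7, 24.7 and 13.8 CPM against 14.8 to 26.0 CPM (-0.09, adjusted p = 0.923).

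Marker scores of cell types and states differed among the 3 tumors. Of 13 marker lists scored without their Chr1 genes, 0 differed between the groups at an adjusted p under 0.05 (exact permutation tests, smallest adjusted p = 0.525), and 1 (B cell) had an unadjusted p under 0.05. Tumor 19 was above all 17 for the T cell score (1.48 against at most 0.72), with its 9 genes summing to 16.2 CPM in tumor 19, 10.8 and 11.1 CPM in tumors 4 and 20, and 10.2 to 14.1 CPM in the 17, and with Cd3d at 0 counts in at least 1 of the 3. The B cell score was 0.39, 1.05 and 0.35 in tumors 4, 19 and 20, against -1.17 to 0.85 with a median of -0.05 in the 17. In tumor 19 the 7 genes of this list summed to 13.1 CPM, inside the 4.23 to 13.7 CPM of the 17. The Chr1 leukocyte receptor genes of tumor 19 had a median level of 0.24 relative to the 17, where tumors 4 and 20 had -0.18 and -0.24. Tumor 4 had the lowest summed leukocyte level of all, 324.7 CPM for all 9 listed genes, Chr1 genes included, against 385 to 726 CPM. Its leukocyte score, which leaves out Chr1 genes, was -1.12, inside the -1.53 to 1.03 of the 17. Tumor 20 was below all 17 for nuclear-retained RNA (-1.15 against at least -0.97), at 2688 CPM for 6 genes against 2817 to 7761 CPM. The part of these differences in the Chr1 levels was not tested beyond the fit with the leukocyte score as a covariate, in which the median over Chr1 genes was -0.23 and 14 genes were called.

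Subunits of protein complexes allowed Chr1 genes to be set beside partners coded elsewhere. In 11 of 11 complexes with members on both, the Chr1 subunits had the lower median, although no subunit was called by edgeR, and DESeq2 called Psmd1 and Ndufs1 in these complexes. Chr1 genes in general had a median of -0.24 and genes elsewhere 0.01, so this restates the Chr1 shift and is no result about complexes. The gaps were not tested. Mcm6 and Mcm3 had -0.45 and -0.15, and the other 4 MCM helicase subunits a median of -0.05. In tumors 4, 19 and 20 Mcm6 was at 41.5, 53.3 and 62.4 CPM against 55.4 to 93.1 CPM, so that only tumor 20 lay inside the range of the 17. Nuf2 of the NDC80 kinetochore complex had -0.40 and its 3 partners a median of -0.02. Psmd1 had -0.29 and the other 17 subunits of the 19S proteasome a median of 0.07. Of mitochondrial complex I, 4 Chr1 subunits had a median of -0.29 and the other 32 of 0.02, and Ndufs1, its largest iron-sulfur subunit, was at 62.8, 56.9 and 63.1 CPM, below the 65.7 to 90.4 CPM of all 17 (-0.34, edgeR adjusted p = 0.143, DESeq2 adjusted p = 0.0400). Bard1 had -0.39 beside -0.05 for its partner Brca1, and Sdhc of complex II had -0.24 beside a median of 0.01. The smallest gaps were in the Ku heterodimer, with -0.21 for Xrcc5 and -0.13 for Xrcc6, and in the cytosolic ribosome, with medians of -0.15 for 3 Chr1 subunits and -0.03 for 78 others. Hspd1 and Hspe1, neighboring genes of the Hsp60 and Hsp10 chaperonin that both lie on Chr1, had -0.39 and -0.31.

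**Figure D3:**
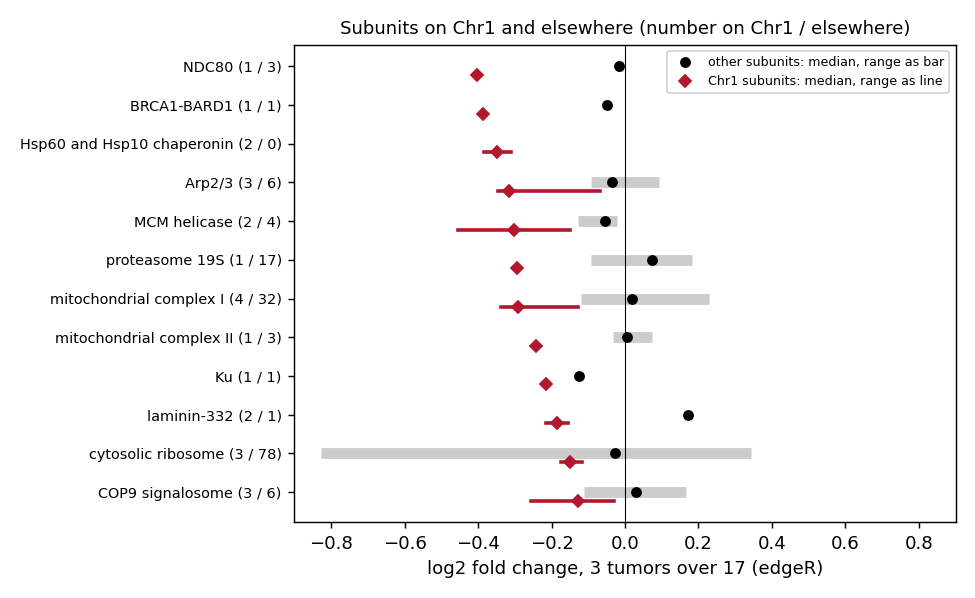
Log2 fold change of complex subunits coded on Chr1 and elsewhere. The x axis gives the edgeR log2 fold change of the 3 Chr1-blank tumors over the 17 others, and each row is a complex with its number of subunits tested on Chr1 and elsewhere. Red diamonds and lines are the median and range of Chr1 subunits, black dots and grey bars those of other subunits. The red median lies left of the black dot in each of the 11 complexes that have both.

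Outside Chr1, no chromosome passed the test between the groups at an adjusted p under 0.05. Each Chr1-blank tumor had at least 1 other chromosome out of the range of the 17, which a single tumor can have by chance. How many to expect outside it was not computed. The smallest adjusted p over the other chromosomes was 0.175 (exact permutation tests), for Chr7, with a difference of 0.04. Tumor 4 was outside the range of the 17 for 9 of the 19 other chromosomes. It was above it for 5 (Chr5, Chr7, Chr11, Chr17 and Chr19), the farthest for Chr17 (0.09 against at most 0.04), and below it for 4 (Chr3, Chr9, Chr12 and ChrX), where Chr12 was at -0.08 against at least -0.07 and ChrX at -0.09 against at least -0.07. Some of these margins were small, as for Chr9 at -0.032 against at least -0.030 and Chr5 at 0.026 against at most 0.021. Tumor 4 was also high for Chr2 (0.21), inside the range of the 17 that reached 0.24. Tumor 19 was outside the range for 2 chromosomes (Chr2 and Chr4) and tumor 20 for 1 (Chr12). Tumor 19 had the highest Chr4 level of all 20 tumors, 0.38 against at most 0.17. Tumor 20 had the highest Chr12 level, 0.11 against at most 0.10. These levels were not shared by the 3 tumors, since Chr4 was at -0.11 in tumor 4 and -0.06 in tumor 20.

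**Figure D4:**
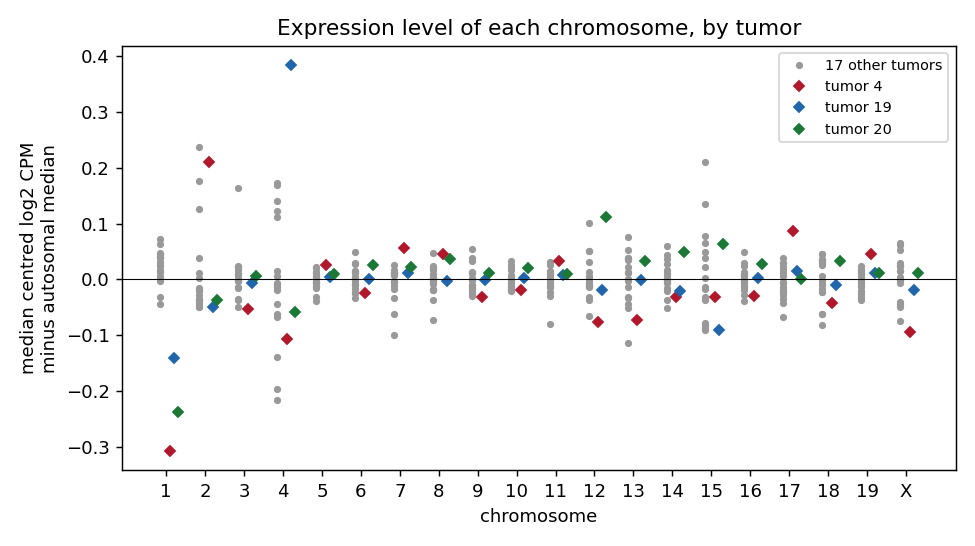
Expression level of each chromosome in each tumor. The x axis gives the chromosome, the y axis the median centred log2 CPM of its genes minus the median over the other autosomes, grey dots the 17 other tumors and colored diamonds tumors 4, 19 and 20. The 3 tumors are together below the others for Chr1, and elsewhere they part, as for Chr4 with 0.38 in tumor 19 and -0.11 in tumor 4.

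On other chromosomes edgeR called 7 genes between the groups, all higher in the Chr1-blank tumors, whereas DESeq2 called 52 higher and 41 lower. Odc1 (Chr12, 17544873 to 17551502), ornithine decarboxylase, makes putrescine in the first and rate-limiting step of polyamine synthesis. It was at 162.0, 123.2 and 219.0 CPM in tumors 4, 19 and 20 and at 47.0 to 101.0 CPM, with a median of 74.6, in the 17. All 3 tumors were above all others, with a log2 fold change of 1.21 (SE 0.150, adjusted p = 0.000457). Mmp2 (Chr8, 92827328 to 92853417), the gelatinase that degrades type IV collagen, was at 163.5, 154.5 and 92.4 CPM against 26.1 to 70.2 CPM with a median of 54.1, again without overlap (1.43, SE 0.208, adjusted p = 0.00299). The fibroblast marker score, as a measure of a cell type that expresses Mmp2, was -0.63, 0.87 and 0.07 in the 3 tumors and -1.94 to 1.73 in the 17. Whether the Mmp2 level followed the fibroblast content was not tested. Lrrc28 (Chr7) was at 14.04, 9.75 and 10.8 CPM against 4.73 to 9.38 CPM (0.83, adjusted p = 0.0224), and 9030617O03Rik (Chr12) was at 6.32, 4.70 and 6.90 CPM against 2.05 to 4.22 CPM (1.01, adjusted p = 0.0229). Tgm3 (Chr2), a transglutaminase of cornifying epithelium, was at 0.175, 0.0777 and 93.5 CPM against 0.0283 to 1.19 CPM. Its call (7.10, adjusted p = 0.000457) rested on tumor 20 alone, and without that tumor the log2 fold change was -0.83. Under leaving out 1 of the 3 tumors, Odc1 was called in each case, and Mmp2 was lost without tumor 4 (adjusted p = 0.111). Lrrc28 was lost without tumor 4 (adjusted p = 0.333) and without tumor 20 (0.0757), and so was 9030617O03Rik (0.227 and 0.115).

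**Figure D5:**
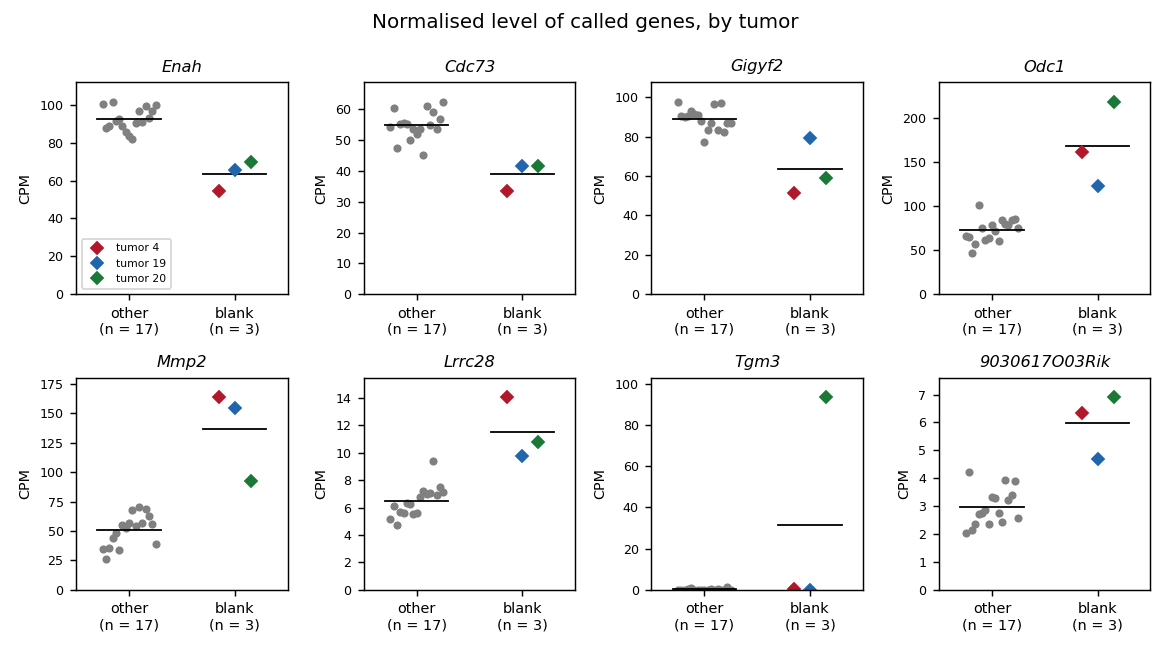
CPM of 8 of the 12 called genes in every tumor. Each panel is a gene, the y axis its CPM from 0, grey dots the 17 other tumors, colored diamonds tumors 4, 19 and 20, and black lines the group means. Enah and Cdc73 lie below, and Odc1, Mmp2, Lrrc28 and 9030617O03Rik above, all others in all 3 tumors, whereas Tgm3 is high in tumor 20 only.

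Of the 12 called genes, 4 were Odc1 and copies of it. Gm7278 on distal Chr1 (152729159 to 152730559), which was among the 2 Chr1 genes called higher, Gm17709 on Chr8 (121972727 to 121973822) and Gm9115 on ChrX (102724402 to 102725749) are annotated as processed pseudogenes, each of 1 exon. Over their aligned lengths of 1380, 935 and 1338 bases they were 96.7%, 98.0% and 97.5% identical to the Odc1 transcript of GENCODE vM21 (GRCm38, the assembly also named mm10). The 60 bases below are shown because the likeness bears on what the counts of these genes can mean. They are the first gap-free stretch of coding sequence within a single Odc1 exon in which each copy has a difference, 5′ to 3′ on the sense strand, with capitals where a copy differs from Odc1. The Odc1 stretch is chr12:17548309-17548368 on the plus strand, and those of Gm7278, Gm17709 and Gm9115 are chr1:152730051-152730110, chr8:121973602-121973661 and chrX:102725241-102725300 on the minus strand.
Odc1: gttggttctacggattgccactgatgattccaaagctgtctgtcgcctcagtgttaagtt
Gm7278: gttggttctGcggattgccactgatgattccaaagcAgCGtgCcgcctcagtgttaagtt
Gm17709: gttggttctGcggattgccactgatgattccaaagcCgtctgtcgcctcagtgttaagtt
Gm9115: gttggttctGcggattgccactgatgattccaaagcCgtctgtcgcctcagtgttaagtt

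Gm7278 had 5 differences in these 60 bases and the other copies 2 each. Of all stretches of 100 bases, the trimmed read length, 1.92% of those of Gm7278, 16.8% of those of Gm17709 and 9.53% of those of Gm9115 were identical to a stretch of Odc1. Like Odc1, each copy was above all 17 other tumors in all 3 Chr1-blank tumors. Among the 3, Gm9115 was nearly level, at 2.42, 2.27 and 2.41 CPM, where Odc1 was at 162.0, 123.2 and 219.0 CPM. Gm7278 had 3.15%, 2.92% and 2.81% as many counts as Odc1 in tumors 4, 19 and 20, against 2.48% to 3.64% in the 17, a ratio that did not differ between the groups beyond their spread (difference -0.08 percentage points, exact permutation test, adjusted p = 0.732 over 3 copies). The ratio of Gm17709 was 8.28%, 7.39% and 5.57% against 6.44% to 10.4%, and that of Gm9115 1.50%, 1.84% and 1.10% against 1.33% to 2.02% (adjusted p = 0.382 for both). In tumor 20, where Odc1 was highest, both of these ratios were below all 17. Whether reads of these genes came from Odc1 RNA was not tested, and their values are uncertain as measures of separate genes. Gm17709 also overlaps Gm20388 and Banp, with medians of 10464 and 1627.5 counts beside its own 335.5. Gm7278 overlaps Rgl1, with a median of 518.5 counts beside its own 126. The other Chr1 gene called higher, 2610203C22Rik (4.35, 2.27 and 2.41 CPM against 1.15 to 1.92 CPM, log2 fold change 0.93, adjusted p = 0.0311), overlaps Adhfe1 and 3110035E14Rik, whose reads may be counted with it where strand was not used. It and Gm9115 have a mean log2 CPM under 1 and were named after their values were seen.

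The levels of genes around the called genes differed from those of the called genes. Within 5 Mb of Odc1, 21 other expressed genes had a median level of -0.12, -0.05 and 0.14 in tumors 4, 19 and 20 against -0.06 to 0.11 in the 17, so that this region was below all 17 in tumor 4 and above them in tumor 20, where Odc1 was highest. Within 5 Mb of Mmp2, 53 genes had 0.04, 0.03 and -0.05, against -0.08 to 0.04 in the 17. The 45 neighbors of 9030617O03Rik had -0.05, -0.08 and 0.05 against -0.07 to 0.07, and the 29 neighbors of Lrrc28 -0.05, 0.02 and 0.02 against -0.08 to 0.10. The 90 neighbors of Tgm3 had 0.31, -0.08 and -0.04 against -0.07 to 0.21, above all 17 in tumor 4 but not in tumor 20, where Tgm3 was high. None of these regions was above all 17 in all 3 tumors. The 49 neighbors of Gm9115 on ChrX had -0.09, -0.10 and -0.13, against -0.09 to 0.08 in the 17. The 95 neighbors of Gm17709 had 0.10, 0.02 and 0.04, against -0.10 to 0.08 in the 17.

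No gene outside Chr1 was called lower by edgeR, although 586 had an unadjusted p under 0.05 (3.11% of 18817), and DESeq2 called 41. Among those with the smallest p, Pde1c (Chr6), a calmodulin-dependent phosphodiesterase, was at 4.21, 2.17 and 3.10 CPM, below the 4.80 to 14.5 CPM of all 17 (log2 fold change -1.53, SE 0.331, adjusted p = 0.0816). 2610035D17Rik (Chr11) was at 0.485, 0.951 and 1.18 CPM against 1.11 to 3.36 CPM (-1.45, adjusted p = 0.0664). Gm1818 (Chr12) was at 1.22, 1.50 and 1.53 CPM against 1.71 to 2.73 CPM (-0.68, adjusted p = 0.0907). Of the 41 lower and 52 higher genes that DESeq2 called outside Chr1, 9 and 13 had no overlap between the groups. Of its 106 lower ones on Chr1, 43 had none. Over all genes tested, 0.344% were below all 17 and 0.143% above them in all 3 tumors. The called genes were chosen on the same values, so their larger shares without overlap are no separate support. On Chr1 the next genes in order of p among those with higher values were Gm29084 (22.8, 30.1 and 117.8 CPM against 12.4 to 39.3 CPM, adjusted p = 0.164) and RP23-442A6.1 (75.9, 53.6 and 109.1 CPM against 28.3 to 77.9 CPM, adjusted p = 0.255), in each of which tumor 20 alone was above the others. Xist, which marks the inactive X chromosome in these female mice, was at 1401, 1097 and 823 CPM against 817 to 1839 CPM (-0.27, adjusted p = 0.789).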

How the data were processed

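RNA of 20 tumors was sequenced as paired-end reads, trimmed by the authors to a length of 100 bases before alignment to mm10. Submitters' processing notes list TopHat2 2.0.12 and featureCounts 1.4.4. The counts are as deposited, unnormalized, with each tumor in its own column, and the strand setting is not given in the sources used here, so overlapping genes and near-identical copies are uncertain. P-values measure the spread between tumors of different mice.

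The 3 tumors were taken from the study's allele table, of which only part was read here, and its values were not used. Members and gene lists were chosen with earlier results of these data known. Differential expression used the quasi-likelihood test of edgeR 4.0.16 after filterByExpr and TMM, with p-values adjusted by Benjamini-Hochberg over all genes tested and called at 0.05. DESeq2 1.42.0 and limma 3.58.1 (voom) were alternatives, in R 4.3.3. Log2 CPM had a prior count of 2. Chromosome and window levels were compared by two-sided exact permutation tests. Named genes were, per direction and for Chr1 and elsewhere, those called with the largest fold change and a mean log2 CPM of at least 1, called members and up to 3 abundant members of the lists, Erbb2, Xist and, where fewer than 3 were called, the 3 with the smallest p. Alternatives changed 1 choice at a time. The split of Chr1, levels near called genes, marker scores with Chr1 genes or without each of the 3 tumors, and the sequence comparison were chosen after seeing the data. Scripts were tested on simulated data.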

Additional observations from a re-analysis of the deposited data

How the results depend on the processing

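The lower level of Chr1 kept its direction under all alternatives, with values from -0.30 to -0.20. The p adjusted over chromosomes stayed under 0.05 with each filter on low values, on the log2(RPKM + 1) scale, as a mean over genes, without subtraction of the autosomal median and without any 1 of the 17. It was 0.117 to 0.234 without 1 of the 3 Chr1-blank tumors and 0.682 in Hi tumors only, where the unadjusted p was 0.0117 and 0.0364. The median log2 fold change over Chr1 genes ranged from -0.30 to -0.20. The number of genes called was less firm, and the cause was not tested. Against 12 genes (Chr1, 3 lower and 2 higher, elsewhere 0 lower and 7 higher), DESeq2 called 201 (Chr1, 106 lower and 2 higher, elsewhere 41 lower and 52 higher). Without a filter on low counts 21 were called, 14 of them higher outside Chr1. Lower Chr1 genes numbered 5 with Lo or Hi as a covariate, 5 with the leukocyte score as a covariate (with 1 higher), 5 with limma-voom and 7 with TMM factors from genes outside Chr1, and 1 gene elsewhere was lower with each covariate. Among Hi tumors only (2 against 9) edgeR called 0 genes, with 1206 at an unadjusted p under 0.05, and with a replicate block on the number that ends each sample name it called 0 (0 in each direction), with 1194. Those numbers 7 and 8 occur in both groups, but the labels give them no meaning. The deviations of the tumors that share them correlated at -0.28 and -0.15. Tumors of unlike number were not correlated for comparison, so these values cannot settle whether the numbers pair the tumors.

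Without 1 tumor the number called ranged from 3 (without tumor 4) to 90 (without tumor 19), on Chr1 from 0 to 50 lower and 0 to 2 higher, and elsewhere from 0 to 6 lower and 3 to 32 higher. Leaving out each of the 3 Chr1-blank tumors kept 16 to 19 of 20 windows past the threshold. At a mean of at least 20 CPM, 1 other chromosome passed, Chr7, with a difference of 0.05. Some values changed sign. Under the replicate block these were Erbb2 (-0.0361), Arpc2 (0.0208), Cops5 (0.0347) and Mcm3 (0.0960). Lamb3 was at 0.00996 in Hi tumors only. Without 1 tumor, ranges were -0.83 to 7.69 for Tgm3, -0.0574 to 0.00465 for Cops5, -0.79 to 0.10 for Lamb3, -0.281 to 0.0115 for the median of the leukocyte receptor list and -0.541 to 0.000498 for that of the Chr1 subunits of laminin-332. Of 12 called genes, 10 lost the adjusted threshold without tumor 4, 9 without tumor 20 and 0 without tumor 19.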
